A study of Mus musculus with 4 samples.

Results

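The Cyp3a family of cytochrome P450 genes was followed through 5 genes in mouse liver, Cyp3a11, Cyp3a13, Cyp3a16, Cyp3a25 and Cyp3a44. The members were the probe sets of the array that the platform annotation assigns to 1 of these symbols alone. There were 5 such probe sets, 1 for each gene, of 45101 on the array, which measured 18193 named genes. A further Cyp3a probe set is annotated to both Cyp3a41a and Cyp3a41b and belongs to neither alone. It is described beside the members because near-identical family members can share signal. Probe sequences were not available here, so such sharing could not be checked for any of the probe sets. Of the 5 members, 4 passed a filter on low signals, which kept those whose mean level reached the array-wide median (near a signal of 120.0), and Cyp3a16 did not.

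All mice were of the C57BL/6J strain and 2 months old, and each received injections in a first and in a second exposure with 7 days of normal feeding between them. The first exposure was given as 2 intraperitoneal injections 24 h apart, and livers were collected 5 h after the second exposure. Ethylbenzene, an aromatic solvent, was given at 7 mmol per kg, and phosphate-buffered saline (PBS) took its place in the control injections. The groups were E+E (ethylbenzene, then ethylbenzene; 5 mice), P+E (PBS, then ethylbenzene; 5 mice), E+P (ethylbenzene, then PBS; 3 mice) and P+P (PBS both times; 3 mice). Liver RNA of the mice of a group was pooled and hybridised to 1 Affymetrix array, so there were no replicates, no value has an error between animals, and no difference was tested. The number of mice in a pool went with the second injection, and the effects of both cannot be told apart. Fewer cells of a type and less RNA per cell cannot be told apart in such bulk samples either.

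CYP3A enzymes are heme-containing monooxygenases of the endoplasmic reticulum that oxidise steroids, bile acids and a wide range of drugs, with electrons from NADPH cytochrome P450 reductase. Their genes are textbook targets of the pregnane X receptor (PXR, gene Nr1i2) and the constitutive androstane receptor (CAR, gene Nr1i3), nuclear receptors that bind DNA with the retinoid X receptor. In mouse liver Cyp3a11 is the main adult form, Cyp3a25 and Cyp3a13 are further adult forms, and Cyp3a16, Cyp3a41 and Cyp3a44 are known as female-predominant, with Cyp3a16 also known from fetal liver. Cyp3a13 is also expressed in the intestine.

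The genes lie on chromosome 5. By the RefSeq gene table (GRCm38.p6), Cyp3a16, Cyp3a41b, Cyp3a41a, Cyp3a44, Cyp3a11 and Cyp3a25 follow each other with 0 other protein-coding genes between them, whereas 121 protein-coding genes separate Cyp3a13 from Cyp3a57, the next Cyp3a gene. The 250 bases before the transcription start were taken from the RefSeq promoter table of the same build, in which all 5 members were found. They are shown for the 3 members with signals far above the filter level, whose ratios after ethylbenzene differed in direction. Each is written 5′ to 3′ along the gene, and capitals mark matches, on either strand, to the nuclear receptor half-sites AGGTCA and AGTTCA and to CAAAGTC, the core of an HNF4 site. The 3 regions are on the minus strand, at chr5:137921620-137921869, chr5:145879855-145880104 and chr5:146009619-146009868.
Cyp3a13: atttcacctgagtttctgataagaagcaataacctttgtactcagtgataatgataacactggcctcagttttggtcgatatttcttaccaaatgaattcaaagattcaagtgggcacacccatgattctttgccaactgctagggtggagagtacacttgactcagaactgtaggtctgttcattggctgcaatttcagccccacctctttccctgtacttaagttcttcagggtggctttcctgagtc
Cyp3a11: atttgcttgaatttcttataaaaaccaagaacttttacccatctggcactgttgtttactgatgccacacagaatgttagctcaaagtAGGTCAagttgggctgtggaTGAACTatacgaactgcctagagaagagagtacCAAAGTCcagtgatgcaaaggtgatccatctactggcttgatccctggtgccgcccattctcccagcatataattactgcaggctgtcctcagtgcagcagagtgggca
Cyp3a25: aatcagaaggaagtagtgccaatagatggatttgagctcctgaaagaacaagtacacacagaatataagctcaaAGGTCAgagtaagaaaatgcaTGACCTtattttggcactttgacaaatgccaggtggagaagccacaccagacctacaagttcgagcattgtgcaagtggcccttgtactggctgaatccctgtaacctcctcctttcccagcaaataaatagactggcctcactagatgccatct

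Cyp3a13 held none of these letters in its 250 bases, which says nothing about binding elsewhere. Cyp3a11 held AGGTCA at -162, AGTTCA at -142 on the opposite strand and CAAAGTC at -109, counted from -1 as the base before the start. Cyp3a25 held AGGTCA at -176 and again, on the opposite strand, at -155. Over 27025 mouse promoters of the same length, AGGTCA was present in 13.8%, AGTTCA in 11.9% and CAAAGTC in 3.8%. Of the 9 Cyp3a promoters AGGTCA was present in 5, AGTTCA in 3 and CAAAGTC in 4. Several of these 9 are near copies and not separate cases. In a global alignment Cyp3a41a and Cyp3a41b were 99.6% identical, and Cyp3a25 and Cyp3a59 95.2%. Direct repeats of AGGTCA spaced by 3 or by 4 bases, an everted repeat of TGAACT and AGGTCA spaced by 6, and TTGCGCAA, a C/EBP site, were searched too and matched no Cyp3a promoter. In the same order, these exact forms matched only 2, 3, 0 and 46 of the 27025 promoters. Their absence from 9 promoters therefore says little about sites for these factors.

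**Figure D1:**
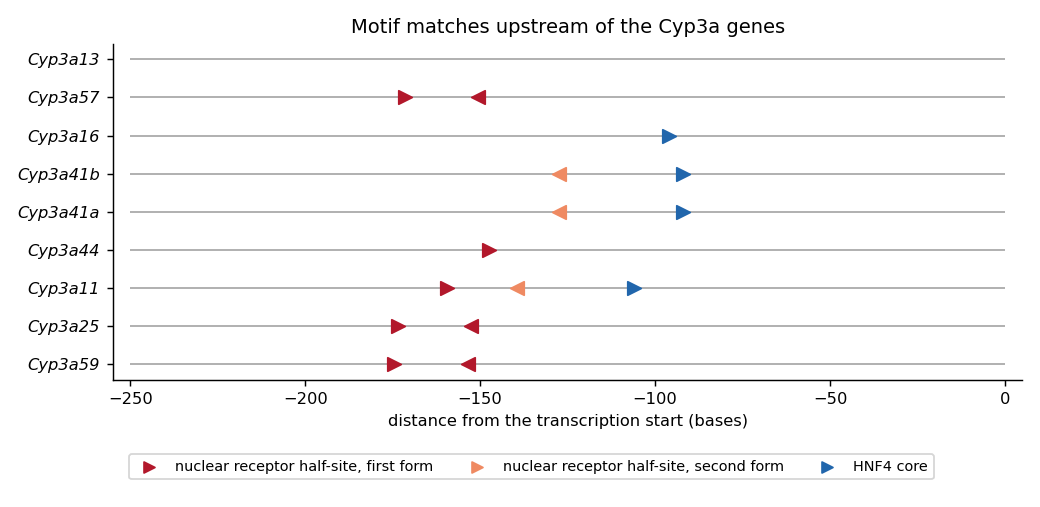
Matches to the motifs in the 250 bases before the transcription start of the 9 Cyp3a genes of the promoter table, drawn in their order on chromosome 5. The x axis is the distance from the start in bases, triangles point along the strand of the match, the first and second half-site forms are AGGTCA and AGTTCA, and Cyp3a13 carries no mark.

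The members were also compared in these upstream bases, while the likeness of their transcripts was not examined. In a global alignment 94.4% of the 250 bases of Cyp3a16 were identical in Cyp3a44, 92.4% in Cyp3a41a, and 79.6% of those of Cyp3a11 were identical in Cyp3a16. Among the other members, Cyp3a13 shared 61.6% with Cyp3a16, 60.0% with Cyp3a44, 58.0% with Cyp3a11 and 56.0% with Cyp3a25. Cyp3a25 was as unlike the rest, with 58.4% shared with Cyp3a11, 57.6% with Cyp3a16 and 58.4% with Cyp3a44. For scale, Cyp3a13 shared a median of 51.6% with 1692 promoters of other genes of the chromosome, and at most 59.2%. For Cyp3a25 the median was also 51.6%, and the highest 58.4%. The longest stretch common to Cyp3a16 and Cyp3a44, 55 bases on the minus strand, is printed because it shows how alike their upstream bases are. In GRCm38.p6 it lies at chr5:145469902-145469956 for Cyp3a16 and at chr5:145806049-145806103 for Cyp3a44.
Shared stretch: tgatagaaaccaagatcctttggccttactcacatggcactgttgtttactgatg

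Signals are the linear probe set intensities as deposited. Log2 ratios are differences of log2(signal + 43.2) after quantile normalization over the 4 arrays, and a fold of at least 2 (1 on the log2 scale) was a fixed rule of size. Levels of different probe sets were not set against each other, since probe sets differ in brightness for the same amount of RNA. The P+P array stood apart in its control probe sets. The 18S ribosomal RNA controls averaged (geometric mean) 182 on E+E, 145 on P+E, 122 on E+P and 1870 on P+P, and the Actb controls 30500, 24600, 22100 and 8930 in the same order. As a check of the liver label, hepatocyte markers were looked up. Of 8, 7 had signals of 41500.6 or more on every array. Among them were Ttr, which encodes transthyretin, and Tat, a tyrosine aminotransferase gene. Ass1, a urea cycle gene, was at 164.0 to 347.8 on the 1 probe set assigned to it here. Since probe sets differ in brightness, this does not give the level of Ass1 RNA. The labels give no sex. The Y-linked gene Eif2s3y had signals of 1718.9 to 2514.5 on its brighter probe set, and none of the 3 Xist probe sets passed the filter.

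**Figure D2:**
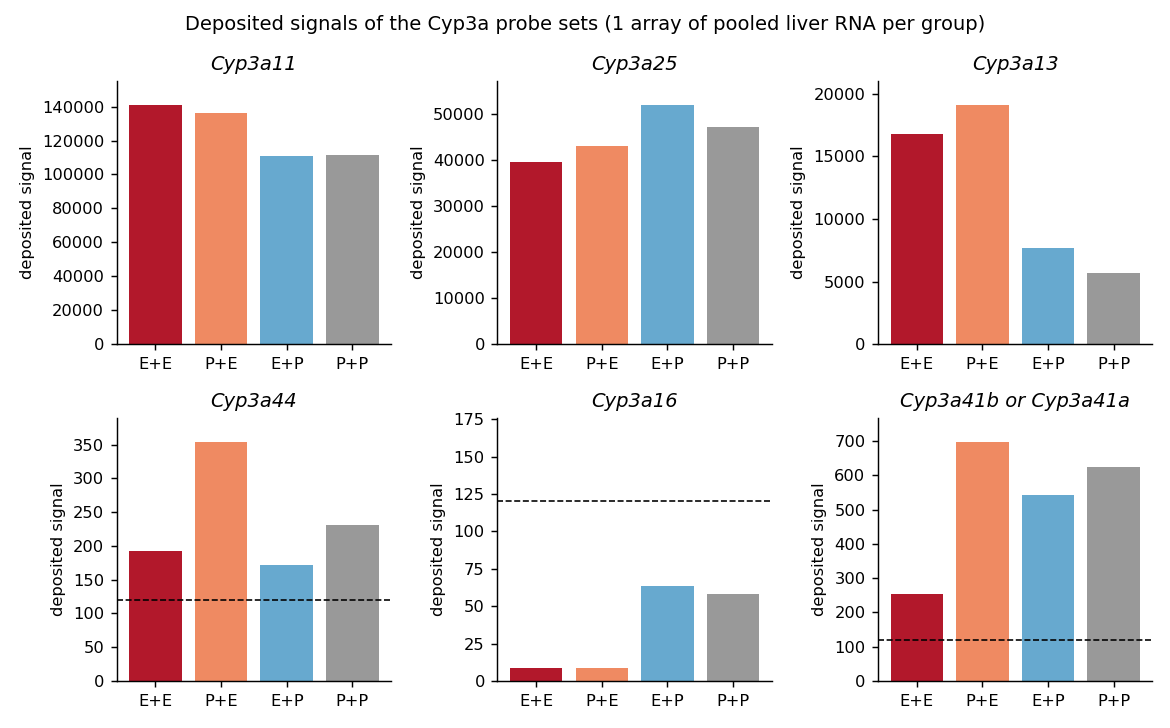
Deposited signals of the 5 members and of the probe set shared by Cyp3a41a and Cyp3a41b, 1 bar per array on linear axes that start at 0. The dashed line marks the filter level of 120.0 where it falls on the axis. Cyp3a13 is higher on both arrays with ethylbenzene in the second exposure. Cyp3a11 and Cyp3a25 stay within 2-fold, and Cyp3a16 stays under the line on every array.

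What ethylbenzene in the second exposure did was asked without and with an earlier exposure to it. The first pair set P+E against P+P, and the second E+E against E+P. Below, E+E and P+E are called the arrays after ethylbenzene, and E+P and P+P the arrays after PBS. The pairs share no array. Cyp3a13 was the 1 member of the 4 past the filter that was at least 2-fold higher in each, and 0 were at least 2-fold lower in either. As background, of all 11513 genes past the filter 6.53% passed that fold upward and 6.7% downward in P+E against P+P. In E+E against E+P the shares were 6.91% upward and 6.75% downward. Upward in both pairs were 2.87% of the genes, and downward in both 1.86%. The median log2 ratio of the 4 members was 0.26 in P+E against P+P and 0.03 in E+E against E+P, beside -0.07 and -0.05 over all genes.

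Cyp3a13, which encodes an adult liver and intestinal CYP3A enzyme, had signals of 16763.9 on E+E, 19094.8 on P+E, 7707.1 on E+P and 5708.1 on P+P. Both arrays with ethylbenzene in the second exposure lay above both arrays with PBS in it. It was 3.5-fold higher on P+E than on P+P (log2 ratio 1.81) and 2.17-fold higher on E+E than on E+P (1.12). Of the 11513 genes, 209 had a higher ratio in the first comparison and 641 in the second. With E+P in place of P+P, whose control probe sets stood apart, P+E was higher by 1.36 on the log2 scale. When the deposited values were centred on the hepatocyte markers, whose median had shifted by 0.27 and 0.29, the ratios were 1.47 in P+E against P+P and 0.82 in E+E against E+P, the second short of 2-fold.

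Cyp3a11, the main adult CYP3A gene of mouse liver, had signals of 140952.5 on E+E, 136315.5 on P+E, 110754.8 on E+P and 111364.4 on P+P. As deposited the 2 arrays after ethylbenzene were the higher ones, by log2 ratios of 0.29 in P+E against P+P and of 0.35 in E+E against E+P. After quantile normalization the ratios were 0.10 and 0.04, and centred on the hepatocyte markers they were 0.02 and 0.06. Its probe set was among the 30 brightest of each array, at ranks 28, 24, 30 and 29 on E+E, P+E, E+P and P+P. Quantile normalization sets the value of each rank to the mean over the arrays.

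Cyp3a25, another adult hepatic form, had signals of 39597.1 on E+E, 43192.0 on P+E, 52053.3 on E+P and 47219.8 on P+P. Both arrays after ethylbenzene were below both arrays after PBS. The log2 ratios were -0.18 in P+E against P+P and -0.49 in E+E against E+P, both short of 2-fold. They kept this sign as deposited (-0.13 and -0.39) and centred on the hepatocyte markers (-0.40 and -0.69). The largest size among the 4 quantile-normalized ratios of Cyp3a11 and Cyp3a25 was thus 0.49, and the smaller of the 2 ratios of Cyp3a13 was 1.12. However, Cyp3a11 was already at 111364.4 on P+P, and the highest signal of any array was 217526.1. Whether the brightness of its probe set limited a rise was not tested. The difference between genes was not tested.

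**Figure D3:**
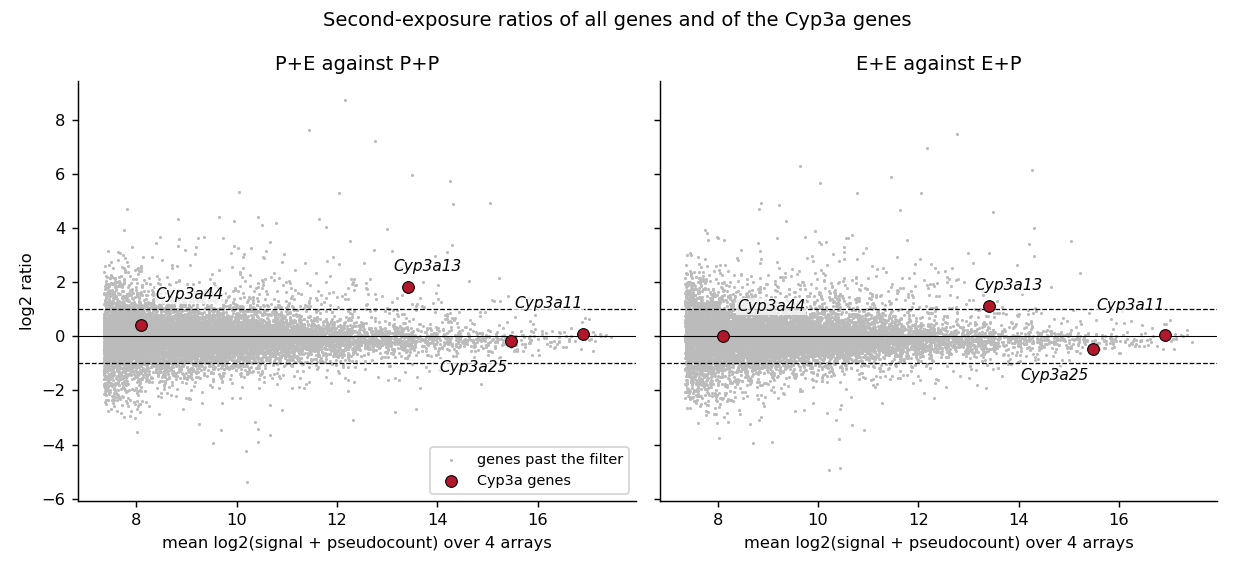
Log2 ratios of the second exposure (y axis) against the mean level over the 4 arrays, as log2(signal + pseudocount) (x axis), for all genes past the filter (grey) and for the 4 Cyp3a genes among them (red). Dashed lines mark 2-fold. Cyp3a13 lies above the upper line in both panels, at 1.81 and 1.12.

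Cyp3a44 and Cyp3a16, known as female-predominant, had signals near or under the filter level. Cyp3a44 had signals of 193.2 on E+E, 354.5 on P+E, 171.3 on E+P and 231.5 on P+P, highest on P+E. Its log2 ratios were 0.42 in P+E against P+P and 0.01 in E+E against E+P. Cyp3a16 had signals of 8.9 on E+E, 8.6 on P+E, 63.4 on E+P and 57.8 on P+P. These were lower on both arrays after ethylbenzene, but every one of them lay under the filter level, so no fold is given. The probe set shared by Cyp3a41a and Cyp3a41b had signals of 253.6 on E+E, 698.6 on P+E, 542.2 on E+P and 623.8 on P+P. It was lowest on E+E, with log2 ratios of 0.17 in P+E against P+P and -1.04 in E+E against E+P.

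Other genes known as female- or male-predominant in mouse liver were set beside these members. Of the 16 female-predominant genes of the list, which includes Cyp3a16, Cyp3a41 and Cyp3a44, 9 were measured and 6 passed the filter. At least 2-fold higher were 2 in P+E against P+P and 0 in E+E against E+P, and lower were 0 and 1. For these small lists, the shares over all genes were 6.53% and 6.91% higher and 6.7% and 6.75% lower. Cyp17a1, a steroid hydroxylase gene, was at 1.56 and 0.60, Cyp2b9 at 2.63 and 0.76, Cux2, which encodes a homeobox repressor, at 0.85 and -0.36, and Acot3, a peroxisomal thioesterase gene, at -0.81 and -1.82. Of 15 male-predominant genes, 10 passed the filter, with 1 higher and 3 lower in the first comparison and 1 higher and 4 lower in the second. Hsd3b5, a steroid dehydrogenase gene, was at -3.10 and -2.28, Cyp7b1, an oxysterol hydroxylase gene, at -1.91 and -1.46, Ugt2b38 at -1.86 and -0.72, and Elovl3, a fatty acid elongase gene, at 1.91 and 1.85.

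Among the other cytochrome P450 genes, 53 of 66 measured passed the filter. At least 2-fold higher were 6 in P+E against P+P and 2 in E+E against E+P, and lower were 4 and 6. In both comparisons 1 was higher, Cyp2b10, and 3 were lower, Cyp7a1, Cyp7b1 and Cyp2g1. Of all genes past the filter, 6.53% and 6.91% were higher in the 2 comparisons and 6.7% and 6.75% lower. In both, 2.87% of all genes were higher and 1.86% lower. Cyp7a1 and Cyp2g1 were named after their values were seen. Cyp2b10, the typical CAR target, had signals of 24975.2 on E+E, 32160.3 on P+E, 381.6 on E+P and 114.5 on P+P, with log2 ratios of 7.62 and 5.87. Cyp7a1, which opens bile acid synthesis, was at -5.37 and -4.93. Cyp2g1 was at -1.71 and -1.58, but the first was -0.87 once signals under the filter level were raised to it. Among these 53 genes and the Cyp3a members past the filter, Cyp2b10 and Cyp3a13 were thus those at least 2-fold higher in both comparisons. Cyp3a13 had the smaller ratios. P450 probe sets annotated to several genes were left out of this count.

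**Figure D4:**
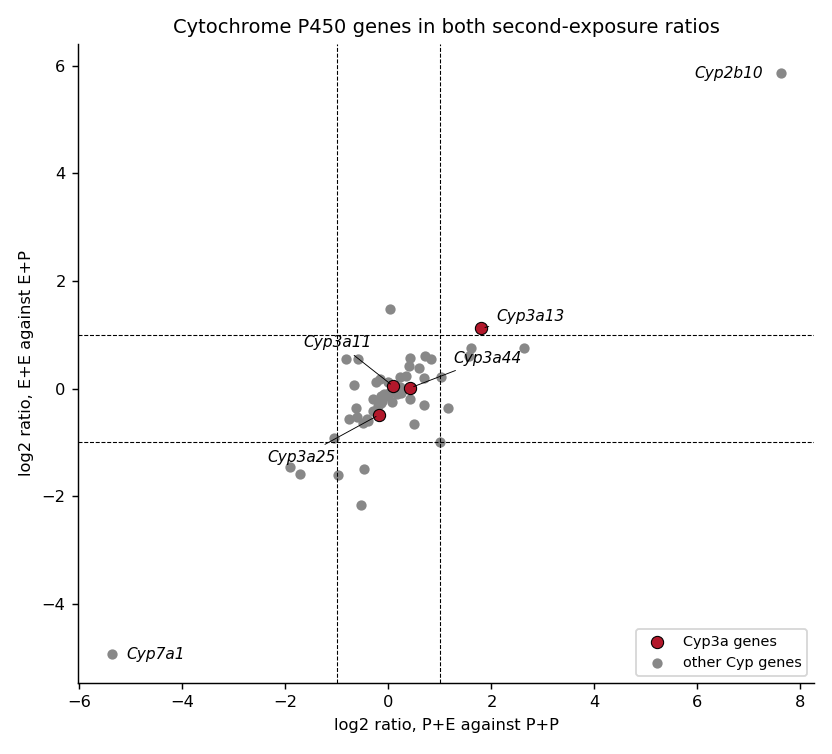
Log2 ratios of cytochrome P450 genes past the filter, P+E against P+P on the x axis and E+E against E+P on the y axis, with Cyp3a genes in red and 53 other Cyp genes in grey. Dashed lines mark 2-fold. Cyp2b10 and Cyp3a13 are in the upper right field, and Cyp3a11, Cyp3a25 and Cyp3a44 lie within the lines.

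The list of 23 PXR and CAR targets outside the Cyp3a family held 19 genes past the filter. At least 2-fold higher were 4 in P+E against P+P and 3 in E+E against E+P, 2 of them in both, and 0 were lower in either. Over all genes 6.53% and 6.91% were higher, 2.87% in both, and 6.7% and 6.75% lower. The list's median was 0.23 and 0.04, beside the -0.07 and -0.05 of all genes. Those in both were Cyp2b10 and Gadd45b, a stress-inducible gene (3.62 and 3.66). Gstm3, a glutathione transferase gene, was at 1.24 and 0.33 and Cyp2b9 at 2.63 and 0.76. The ratios of Cyp3a13 lay between those of Gadd45b and Gstm3 in both comparisons.

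Of 23 regulators and partners of CYP3A enzymes, 20 were measured and 19 passed the filter. At least 2-fold higher were 2 in P+E against P+P and 1 in E+E against E+P, and lower were 3 and 8. The shares over all genes were 6.53% and 6.91% higher and 6.7% and 6.75% lower. In both comparisons Cebpb was higher and Foxa1, Foxa3 and Cebpa were lower, and the list's median was -0.50 and -0.51. Foxa1 and Foxa3 encode forkhead factors of hepatocytes and had ratios of -2.05 and -2.11, and of -2.27 and -1.50. Cebpa, a basic leucine zipper factor of differentiated hepatocytes, was at -2.03 and -1.18, and Cebpb, a factor of the same family that responds to inflammation, at 1.11 and 1.30. Ppargc1a, a coactivator gene, was at -0.67 and -2.08, the second -1.20 with its E+E signal of 49.4 at the filter level.

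The receptors themselves differed from each other. Nr1i3, which encodes CAR, had signals of 1698.5 on E+E, 1998.2 on P+E, 4795.7 on E+P and 3764.0 on P+P, and was lower on both arrays after ethylbenzene (log2 ratios -0.85 and -1.45). Nr1i2, which encodes PXR, had 2 probe sets. The brighter had signals of 1187.3, 1676.3, 1180.1 and 595.9 on E+E, P+E, E+P and P+P, with P+P the lowest. Its ratios were 1.45 and 0.04, and those of the other probe set 0.38 and -0.40, so no direction common to both comparisons was seen. Rxra, the shared partner receptor gene, was at -0.51 in each comparison on its brightest probe set, and another probe set was at 0.18 and -1.79. Hnf4a, a nuclear receptor gene that sustains hepatic P450 expression, was at -0.10 and 0.20 on its brightest probe set, and its 4 probe sets ranged from -0.22 to 1.44 and from -0.54 to 0.20. Por, the reductase gene, was not analysed here. Genes of the electron transfer partners Cyb5a (-0.27 and -0.15) and Cyb5r3 (-0.10 and -0.50) stayed short of 2-fold.

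**Figure D5:**
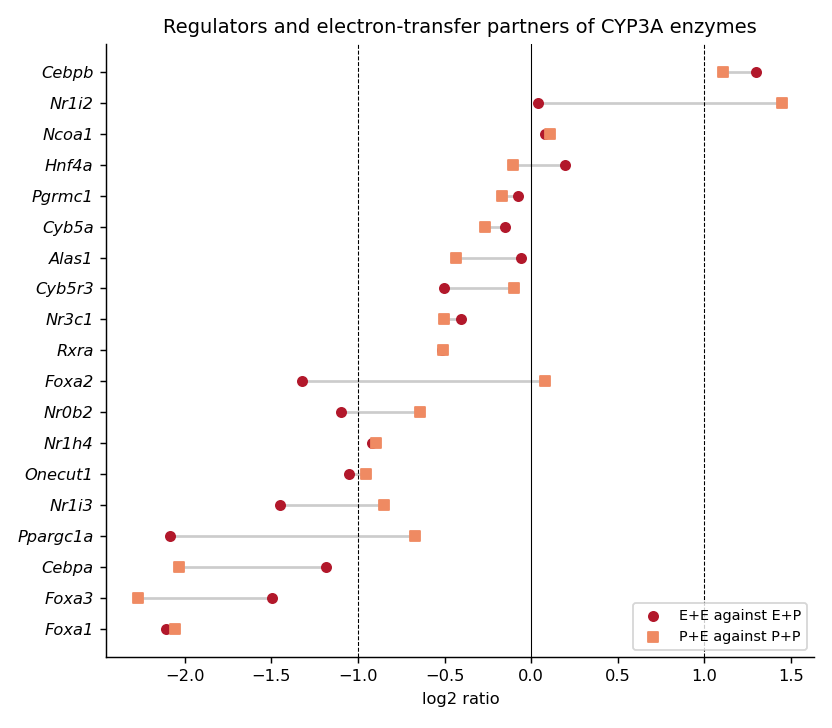
Log2 ratios of 19 regulators and partners of CYP3A enzymes past the filter, with circles for E+E against E+P and squares for P+E against P+P, 1 row per gene. Dashed lines mark 2-fold. Cebpb lies to the right of the upper line in both comparisons, Foxa1, Foxa3 and Cebpa lie to the left of the lower line, and the Nr1i2 values of 1.45 and 0.04 lie far apart.

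Several marker lists differed with the second exposure, and their part in the Cyp3a ratios was not tested. Over all genes past the filter, 6.53% were at least 2-fold higher in P+E against P+P and 6.91% in E+E against E+P. Lower were 6.7% and 6.75%, and higher in both were 2.87%. Of 19 acute phase genes past the filter, 12 were at least 2-fold higher in P+E against P+P and 10 in E+E against E+P, with summed signals of 1673839.7 on E+E, 1449786.5 on P+E, 666807.1 on E+P and 548577.6 on P+P. Of 7 measured pancreatic acinar markers, 6 were higher in both comparisons, with summed signals of 7457.2, 7374.1, 2429.3 and 2965.2 on the same arrays. On E+P 5 of the 7 were at or under the filter level, and on P+P 3, so such folds rest on low signals. The marker that was not higher was Cela1, at -0.52 and -0.11, with signals of 1730.1, 1589.2, 1922.2 and 2393.6 on these arrays. Since Cyp3a13 is also an intestinal gene, enterocyte markers were examined. Of 8, 7 were measured and 4 passed the filter, 1 of them (Apoa4, which hepatocytes also express) was at least 2-fold higher in each comparison, and the summed signals were 14054.3, 13181.6, 10933.4 and 9836.4 in the same order. Fabp2, an intestinal fatty acid binding protein gene, had signals of 6670.2, 5576.7, 7234.4 and 6880.0 on these arrays, with log2 ratios of -0.26 and -0.08. Alpi (-0.66 and -0.33) and Cdx2 (0.43 and 0.27) also passed the filter and stayed short of 2-fold. Vil1, Cdh17 and Lct did not pass it, with signals of 7.4 to 20.6, of 6.3 to 19.7 and of 37.0 to 132.8. Neutrophil markers summed to 6276.2, 3804.6, 581.9 and 1076.4, with 4 past the filter. S100a8 and S100a9 were at least 2-fold higher in both comparisons. Ngp was at -0.89 in P+E against P+P and at 1.33 in E+E against E+P, and Camp at -1.51 and 0.06, the first -0.69 with its P+E signal of 52.1 raised to the filter level. Kupffer cell markers summed to 16259.1, 14114.4, 25636.6 and 16934.7, highest on E+P, with 0 of 8 higher in either and 1 lower in E+E against E+P. The 4 measured cholangiocyte markers summed to 1291.1, 1046.1, 776.5 and 872.7, and 3 passed the filter. Sox9 was at 1.54 and 2.00, Epcam at -1.18 and -0.03, and Krt19 at 0.62 and 0.33. The 8 hepatocyte markers summed to 1119762.4, 1044410.3, 870092.3 and 820759.5, with 0 at least 2-fold apart in either.

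The first exposure, followed by 7 days of feeding, was examined by setting E+P against P+P, where the second injection was PBS, and E+E against P+E, where it was ethylbenzene. No member of the 4 past the filter was at least 2-fold apart in either, and the medians were 0.05 and -0.21, beside -0.015 and -0.002 over all genes. In E+P against P+P, 2.58% of all genes passed 2-fold upward and 2.73% downward. In E+E against P+E the shares were 3.98% upward and 3.99% downward. Cyp3a13 was at 0.45 in E+P against P+P and at -0.24 in E+E against P+E, Cyp3a25 at 0.13 and -0.18, Cyp3a44 at -0.37 and -0.78, and Cyp3a11 at -0.03 and -0.08. The probe set shared by Cyp3a41a and Cyp3a41b was at -0.18 and -1.39. These comparisons share arrays with the second-exposure ones, so their values are not separate evidence.

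Whether a first exposure went with another response to the second was described by the ratio E+E against E+P minus the ratio P+E against P+P. This difference was -0.69 for Cyp3a13, -0.41 for Cyp3a44, -0.31 for Cyp3a25 and -0.05 for Cyp3a11, with a median of 0.005 over all genes. For Cyp3a13 the E+P signal was 1.35 times that of P+P and the E+E signal 0.878 times that of P+E. The array error that enters each difference was not measured. For Cyp3a11 the difference was 0.06 on the deposited values, of the other sign.

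By distance between patterns, the genes most like each member were found among 10994 candidate genes past the filter, as the Euclidean distance of the 4 log2 values after centring each gene on its mean, over 4 arrays. The nearest of so many candidates over 4 arrays is close by selection, so these distances are no evidence of shared regulation. Closest to Cyp3a13 were Coq8a (0.10), which encodes an atypical kinase of coenzyme Q synthesis, Caskin2 (0.17) and Crip2 (0.19), against a median candidate distance of 1.64. Coq8a had signals of 7723.2 on E+E, 8695.8 on P+E, 3809.6 on E+P and 2750.8 on P+P, the same order of arrays as Cyp3a13 and log2 ratios of 1.69 and 1.07. Closest to Cyp3a11 were Apoc3, an apolipoprotein gene, Taf12 and Acadm, an acyl-CoA dehydrogenase gene, each at a distance of 0.02 against a median candidate distance of 0.54. Closest to Cyp3a25 were Tst, which encodes a mitochondrial sulfurtransferase (0.01), Gng12 (0.02) and Nipsnap1 (0.02), and to Cyp3a44 Muc13, a membrane mucin gene (0.02), Arl16 (0.07) and Srfbp1 (0.09).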

How the data were processed

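Liver RNA of each group was pooled, and 10 µg of each pool was labelled for 1 Affymetrix array, per the labels' protocols. The authors deposited 1 linear intensity per probe set and array, 45101 in all. The software behind them was not given in the sources used here. On each array the mean without the 2% of probe sets at either end was 500.0, so the values had been scaled before deposit. Array medians were 129.9 to 153.1.

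Deposited intensities were quantile-normalized over the 4 arrays and written as log2(signal + 43.2), the 25th percentile of all signals. This scale understates differences of low signals. Symbols came from the platform annotation, updated through Entrez identifiers. Probe sets with 1 symbol numbered 34945, with several 932 and with none 9160. For other genes the probe set with the highest mean was used. With 1 array per group no test was made, and the number of arrays limits the precision. Members and lists were chosen with earlier results of these data known. All member probe sets, up to 4 genes per list by mean size of the second-exposure ratios, 5 fixed regulators and the 3 nearest patterns per member were named. Cebpb, Cela1, Cyb5a, Cyb5r3, Eif2s3y and the enterocyte, neutrophil and cholangiocyte markers fall outside this rule and were named with their values seen. Promoters were aligned with Biopython 1.88 (numpy 2.4.6, pandas 2.3.3). The normalization and ratio steps were tested on simulated arrays.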

Additional observations from a re-analysis of the deposited data

Results flagged for a closer look

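For 3 Cyp3a probe sets the results had opposite directions under the same contrast in the 2 backgrounds. With 1 array per group the difference was not tested. How many of all genes change sign in this way was not counted, so the flag does not set these probe sets apart. Of the 11513 genes past the filter, 15.1% had a difference of at least 2-fold in either direction. Cyp3a13 was at -0.24 on E+E against P+E and at 0.45 on E+P against P+P, a difference of -0.69. Cyp3a25 was at -0.18 and 0.13 in the same comparisons, a difference of -0.31. The probe set shared by Cyp3a41a and Cyp3a41b was at -1.04 on E+E against E+P and at 0.17 on P+E against P+P, a difference of -1.21. Its E+E signal was 253.6.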

How the results depend on the processing

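Under 12 alternatives the ratio of Cyp3a13 on P+E against P+P ranged from 1.36 to 1.81, and under 11 that on E+E against E+P from 0.82 to 1.12, below 2-fold when the values were centred on the hepatocyte markers, so that the count of members was then 0. That centring, the use of E+P in place of P+P, the filter level as a floor and the inclusion of the shared Cyp3a41 probe set were chosen after seeing the data. The centring shifted the median of all genes by -0.25 and -0.28 in the second-exposure ratios. Without a low-signal filter the count was 2 in each second-exposure comparison, since Cyp3a16 then entered as the lower one. With the shared Cyp3a41 probe set it was 2 on E+E against E+P, 1 on E+E against P+E and 1 for the difference of ratios. Of 56 alternative counts 50 stayed within 1.5 times the reported one, and of 280 alternative ratios 273 stayed on their side of 2-fold. Changing the filter, averaging or leaving out probe sets and adding the shared Cyp3a41 probe set could not alter a member's ratio. Part of the 273 was thus fixed in advance. Cyp3a16 ranged from -1.78 to 0.0 on P+E against P+P and from -1.76 to 0.0 on E+E against E+P. Cyp3a11 turned sign in 3 of 11 alternatives on E+E against P+E. Averaging the probe sets of a gene, or leaving out those with suffixes for shared sequences, altered nothing, since each member has 1 probe set of the plain kind. No paired analysis was possible because each group had 1 array, and no replicate could be left out. Signals near the filter level limit what can be said of Cyp3a16 and Cyp3a44.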

Other observations

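The 3 nearest genes past the filter on either side of Cyp3a13 on chromosome 5 were looked up after the values of the members were seen. Azgp1, which encodes a secreted zinc-binding glycoprotein, is the nearest on one side and had signals of 72339.1 on E+E, 72162.0 on P+E, 72479.5 on E+P and 66910.8 on P+P. Its log2 ratios were -0.05 in P+E against P+P and -0.22 in E+E against E+P. Farther on this side, Zkscan1 was at 0.50 and -0.14 and Zscan21 at 0.10 and 0.01. On the other side, Pilrb1 was at -1.05 and -0.62, Pilra at -0.31 and -0.29, and Mepce, which encodes an RNA-capping enzyme, at -1.14 and -0.80. Of these 6 genes 0 were at least 2-fold higher in either pair, where Cyp3a13 was at 1.81 and 1.12, and 2 were at least 2-fold lower in the first. Beside the cluster from Cyp3a16 to Cyp3a25, the 6 nearest genes past the filter (Zkscan14, Zkscan5, Zfp655, Rnf6, Cdk8 and Usp12) lay between -0.73 and 0.56 in the first pair and between -0.71 and 0.19 in the second.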
